A study of Mus musculus with 47 samples.

Results

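Imprinted genes are transcribed mainly from the copy inherited from 1 parent, and many of them set how fast a tissue grows. The 10 genes described here are imprinted growth regulators: *Igf2*, *Grb10*, *Dlk1*, *Peg3*, *Mest*, *Plagl1*, *Cdkn1c*, *Ndn*, *Sgce* and *Phlda2*. They were chosen by name, and each of the 10 symbols matched 1 Ensembl gene among the 17078 genes of the expression table. The values are RNA-seq library-size-scaled read counts (CPM) of 46 libraries of sorted mammary epithelial cells from FVB/N mice, 24 luminal and 22 basal, with 4398806 to 20023054 reads on genes. Luminal cells (Lin-CD24+CD29lo) line the ducts and alveoli and make milk, and basal cells (Lin-CD24+CD29hi) are the contractile myoepithelial layer around them. The labels give no genotype beyond the inbred strain and no treatment, and each library holds the sorted cells of mice pooled within a replicate.

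The mice were females at 8 reproductive stages. Those of 10 weeks (W10) and 4 months (M4) of age had never been pregnant, and M4 is the age-matched control of the mice 4 weeks after weaning (Iw4), which had completed a pregnancy. The others were at pregnancy day 3.5 (P3.5) and 14.5 (P14.5), lactation day 3 (L3) and 10 (L10), and 2 days after weaning (Id2, early involution). There were 3 replicates per stage and cell type, and 2 for the basal libraries of P14.5 and of L10. At P14.5 the study had removed another basal sample as an outlier, because it grouped with luminal samples. Luminal and basal cells of a replicate came from the same sort. The RNA was amplified in batches that hold whole stages, with W10 and Id2 in batch 4, L3 and L10 in batch 5 and P3.5 and P14.5 in batch 6, so that a change from the never-pregnant gland to lactation and a difference between batches cannot be told apart. M4 and Iw4 shared batches 1 to 3, and the cell types of a sort shared a batch. The sequencing lanes also held whole stages. W10 was in lane 2, Id2 in lane 3, P3.5 in lane 5, P14.5 in lane 6 and L10 in lane 8, while L3, M4 and Iw4 shared lane 7.

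In an imprinted gene, DNA methylation laid down in the egg or the sperm keeps the copy from that parent silent or active in the offspring, usually at stretches rich in CpG dinucleotides, where methylation occurs. Genes active on the paternal copy tend to promote growth and genes active on the maternal copy tend to restrain it, and many of them are turned down after birth. *Igf2* encodes the growth factor insulin-like growth factor 2, *Dlk1* a transmembrane ligand related to the Notch ligands, and *Grb10* an adaptor that binds insulin and IGF receptors and dampens their signal. *Cdkn1c* encodes the cell cycle inhibitor p57, *Phlda2* a small growth-restraining protein best known in placenta, *Plagl1* and *Peg3* zinc finger transcription factors, *Ndn* the growth suppressor necdin, *Mest* an enzyme-like membrane protein of mesodermal tissue and growing fat, and *Sgce* epsilon-sarcoglycan of the dystrophin complex. The libraries do not separate parental copies, so every level is the sum of both.

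The start regions of *Igf2*, *Grb10* and *Dlk1*, the growth factor, the adaptor and the ligand with the highest levels per kilobase of exon in basal cells at L10 among the genes with such a window in the RefSeq table, are shown for the density of their CpG dinucleotides, which the capitals mark. Each is a RefSeq window on GRCm38.p6 from 250 bases before to 50 bases after an annotated start, and where a gene had several the window with the most CpG dinucleotides is given.
Igf2, chr7:142658755-142659054, minus strand: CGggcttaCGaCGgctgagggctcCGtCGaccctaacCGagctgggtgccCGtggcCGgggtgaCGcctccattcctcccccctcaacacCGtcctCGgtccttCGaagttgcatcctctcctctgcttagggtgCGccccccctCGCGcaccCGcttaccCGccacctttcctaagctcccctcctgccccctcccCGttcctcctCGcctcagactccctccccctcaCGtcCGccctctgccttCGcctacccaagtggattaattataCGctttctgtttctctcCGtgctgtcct
Grb10, chr11:12037371-12037670, minus strand: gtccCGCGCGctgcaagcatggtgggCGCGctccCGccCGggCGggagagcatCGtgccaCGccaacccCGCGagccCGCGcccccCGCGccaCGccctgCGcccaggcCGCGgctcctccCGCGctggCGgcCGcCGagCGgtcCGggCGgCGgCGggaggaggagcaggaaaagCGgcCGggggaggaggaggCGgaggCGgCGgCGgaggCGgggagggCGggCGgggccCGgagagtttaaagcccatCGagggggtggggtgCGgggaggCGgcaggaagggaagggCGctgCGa
Dlk1, chr12:109452573-109452872, plus strand: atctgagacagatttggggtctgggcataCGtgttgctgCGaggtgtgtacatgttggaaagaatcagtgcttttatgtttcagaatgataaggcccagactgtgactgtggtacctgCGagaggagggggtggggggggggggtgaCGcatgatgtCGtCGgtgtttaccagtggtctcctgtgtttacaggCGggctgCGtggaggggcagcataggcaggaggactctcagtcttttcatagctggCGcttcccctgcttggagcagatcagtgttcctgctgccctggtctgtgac
The *Grb10* window holds 45 CpG dinucleotides, a number that 1.95% of the 32544 RefSeq windows reach. The *Igf2* window holds 24, reached by 20.1% of windows, and the *Dlk1* window holds 9, reached by 46.1%, against a median of 7 over all windows. The letters TGCCGC, the core recognised when methylated by the imprint-protecting factor ZFP57, were found on either strand in 11.7% of all windows, among them the *Grb10* window above, 1 of 4 of *Igf2*, 1 of *Plagl1* and 2 overlapping windows of *Mest*. The letters GGGGCCCC, bound by the protein of *Plagl1*, were found in 1.07% of windows and, among these genes, only in that of *Peg3*. RefSeq windows were at hand for 8 of the 10 genes, 14 in all. None of these held the STAT5 letters TTCNNNGAA, which 8.33% of all windows hold. Nor did any hold the AP-1 letters, TGACTCA, found in 5.19% of all windows. The window of *Phlda2* held the TATA box letters, TATAAA, as did 13.6% of all windows. A match of letters is not a measured binding site.

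The labelled cell types were checked against marker genes. All 12 luminal markers were lower and all 12 basal markers higher in basal than in luminal libraries over the mean of the 8 time points. Basal libraries of Id2 stood apart. Their summed CPM of the 12 basal markers was 1795, 19224 and 1272, against 13328 to 81974 in every other basal library. Replicates 2 and 6 thus fell below the range of their label, though above the luminal libraries of Id2 (168 to 340 CPM). The 12 luminal markers summed to 1520 to 6833 CPM in basal and 42679 to 52629 in luminal libraries of Id2. For Id2 the paper reports *Acta2*, *Mef2c*, *Snai2* and *Lifr* above luminal cells. It describes *Trp63*, *Krt5*, *Krt14* and *Id4* as apparently lowered. Replicate 2 had an endothelial sum of 11915 CPM, against 620 and 445 in the other 2, and an adipocyte sum of 4112, and replicate 6 had a fibroblast sum of 81704. The adipocyte list lacked *Adipoq*, *Cidec* and *Cfd*, which were not measured. It was mostly *Fabp4*, with a mean of 1519 of 1695 CPM in basal libraries of Id2, so it is no clear measure of adipocytes. Replicate 4 had the highest pericyte sum of the 3, 9790 against 3144 and 2469 and a fibroblast sum of 13325, above every basal library of the other stages. The Schwann cell list, led by *Sox10*, summed to 39.0, 52.3 and 32.8 CPM in the 3, below every basal library of the other stages (171 or more). At W10 *Sox10* was 228 of 259 CPM of this list in basal libraries and 112 of 222 in luminal libraries. The basal sum is thus mostly that of *Sox10* and does not measure Schwann cells. Marker sums of other cells were also higher at later stages in the basal gate, although the lineage-negative sort, in the study's methods, removed cells with CD31 (endothelial), CD45, CD11b and Ly-6G/Ly-6C (immune), Ter-119 (erythroid) and CD140a (platelet-derived growth factor receptor alpha, the antibody listed as against the human protein), and the antibodies listed include none to a pericyte marker. The pericyte list (8 genes) was led in basal cells by *Mcam* at W10 (mean 70.6 CPM) and by *Rgs5* at every other stage. In basal cells it summed to 149 ± 17.9 CPM at W10 and 190 ± 40.6 at M4 (SD, n = 3). It summed to 1196 ± 98.3 at P14.5 (n = 2), 4053 ± 2562 at L3 (n = 3), 10530 ± 4077 at L10 (n = 2) and 5135 ± 4046 at Id2 (n = 3). None of its genes was at 0 from P14.5 to Id2. All 8 of its genes rose from the never-pregnant gland to lactation in basal cells, as did 10 of 10 endothelial, 5 of 10 fibroblast and 4 of 5 adipocyte and preadipocyte genes. Of the other lists, 2 of 9 immune genes and 0 of 5 Schwann cell genes rose there by the same test. In basal libraries the fibroblast sum was mostly *Fbn1* at W10 (507 of 660 CPM), M4 (356 of 616) and P3.5 (472 of 635). *Fbn1* also led it at L3 (896 of 3184 CPM) and L10 (635 of 2105), and *Col1a1* did at P14.5 (2918 of 8929) and Id2 (11098 of 32996). The fibroblast sum thus does not follow the same genes at every stage. In luminal libraries the basal marker sum was 203 ± 59.3 CPM at W10 and 178 ± 38.8 at M4, and 343 ± 85.2 at P14.5, 976 ± 475 at L3, 1395 ± 1191 at L10 and 248 ± 87.0 at Id2, and the fibroblast sum was 41.1 ± 33.2 at W10, 35.2 ± 20.48 at M4 and 2240 ± 3151 at Id2 (SD, n = 3). In bulk libraries, fewer cells of a type and less RNA per cell cannot be told apart, and the part of these other cells in the results below was not tested.

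**Figure D1:**
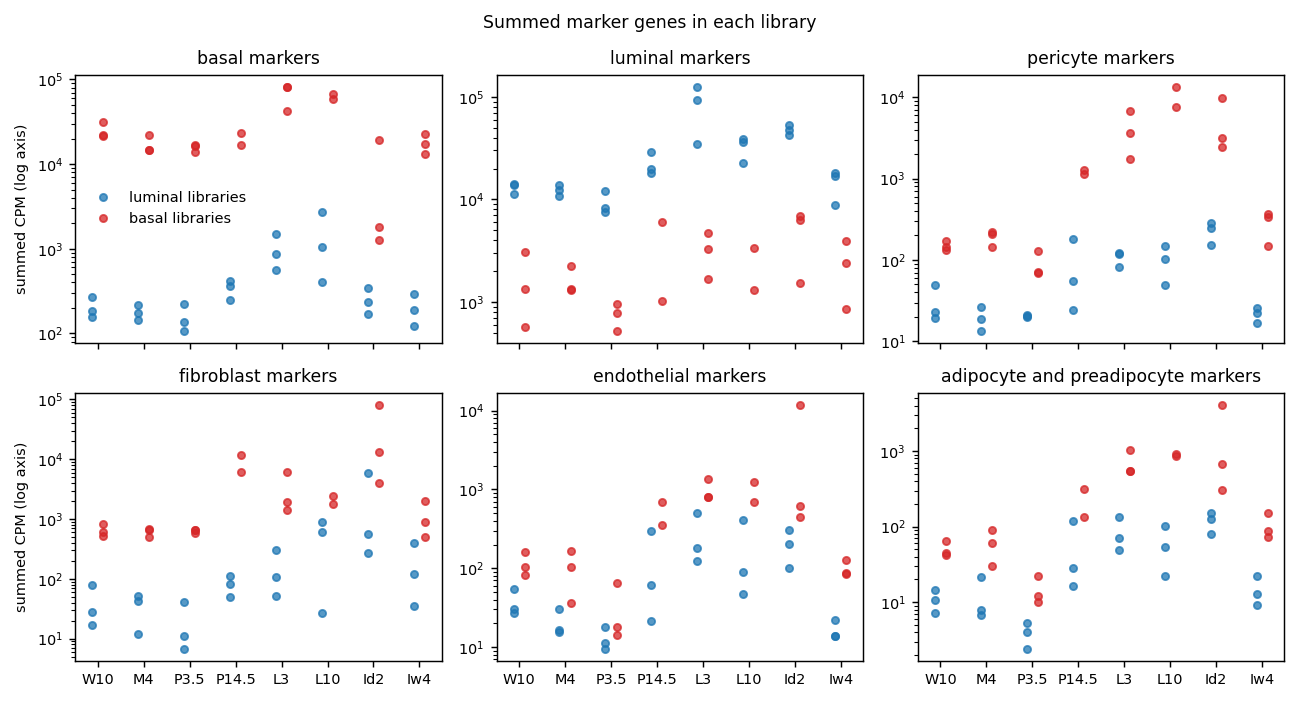
Summed CPM of marker genes in each library (log axis) by time point, luminal libraries in blue and basal in red, 1 point per library. Pericyte markers in basal libraries lie at most at 364 CPM in W10, M4, P3.5 and Iw4 and at 1127 CPM or more from P14.5 to Id2, and 2 basal Id2 libraries lie at 1795 and 1272 CPM for basal markers.

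Expression per kilobase of exon ranks the 10 genes against each other. In basal cells of the never-pregnant gland at W10, *Peg3* was the highest at 12.5 CPM per kb, followed by *Plagl1* at 6.21, *Cdkn1c* at 3.40 and *Igf2* at 2.44, while *Dlk1* (0.278) and *Sgce* (0.0529) were the lowest. In basal cells at L10 the order differed, with *Igf2* at 272 CPM per kb, *Grb10* at 11.9, *Dlk1* at 7.80, *Peg3* at 4.85, *Sgce* at 4.67 and *Cdkn1c* at 4.56. *Igf2* was thus the most abundant per kb in lactating basal cells. In luminal cells *Plagl1* and *Peg3* led at W10 (8.45 and 4.67 CPM per kb) and *Peg3* and *Igf2* at L10 (9.51 and 9.70, respectively), and *Dlk1*, *Ndn* and *Sgce* were at or under 0.5 CPM per kb at every time point.

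**Figure D2:**
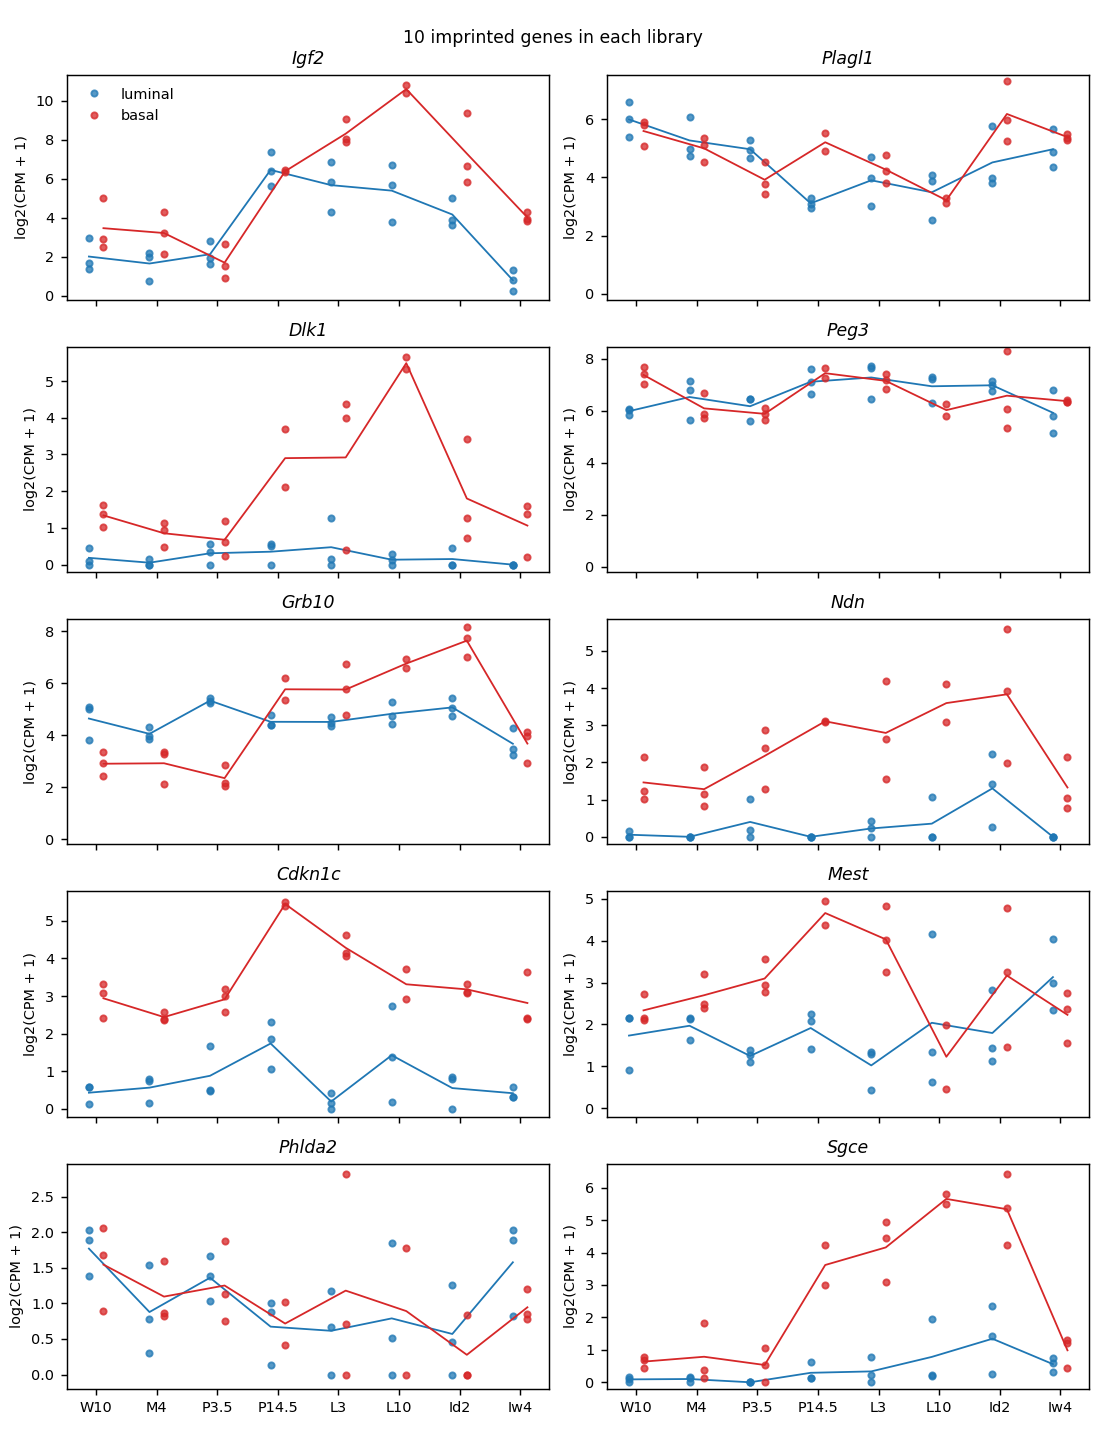
Level of each gene, log2(CPM + 1), in each library by time point, luminal in blue and basal in red, with 1 point per library and a line through the mean of each cell type. Igf2 and Dlk1 peak in basal libraries at L10 and Grb10 and Sgce in those of L10 or Id2, the luminal mean of Igf2 falls from 97.7 CPM at P14.5 to 18.6 at Id2, and Phlda2 is at most 6.09 CPM in any library.

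Over the mean of the 8 time points 6 of the 10 genes were higher in basal cells and none was lower, at a change of at least 2-fold and a false discovery rate under 0.01 in limma, where 21% of all genes were called in either direction. The median log2 fold change of the 10 genes was 1.5, and that of all genes was 0.02. *Cdkn1c* had the largest log2 fold change on this scale (2.64 ± 0.16 (SE), adjusted p = 2.7e-17), then *Sgce* (2.27 ± 0.19, adjusted p = 2.1e-13), *Ndn* (2.15 ± 0.22, adjusted p = 4.1e-11), *Igf2* (2.09 ± 0.27, adjusted p = 1.9e-08), *Dlk1* (1.92 ± 0.22, adjusted p = 1e-09) and *Mest* (1.07 ± 0.24, adjusted p = 0.00021). The call for *Mest* was lost without L10 luminal replicate 4 (0.99), L10 basal replicate 5 (0.98) or Id2 basal replicate 2 (0.97), each under 2-fold, and with Id2 basal replicate 4 as the only basal Id2 library (0.86). The other 5 calls held whichever library was left out. For *Grb10* the mean difference was 0.14 ± 0.15, for *Peg3* 0.00 ± 0.17, for *Plagl1* 0.32 ± 0.18 and for *Phlda2* -0.04 ± 0.19, none of which passed the test. Fold changes are on the scale of CPM + 1, which understates those of genes with few reads. By edgeR on the reads the order was another, with *Ndn* at 5.75, *Dlk1* at 4.78, *Sgce* at 4.38 and *Cdkn1c* at 3.91.

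The number of genes that differed between the cell types depended on the stage. At W10 2 of 10 were called (14.2% of all genes), at M4 1 (12.4%), at P3.5 2 (11.9%) and at Iw4 2 (11.5%). From P14.5 to early involution 6 of 10 were called at each time point, all higher in basal cells, against 12.9% of all genes at P14.5, 25.8% at L3, 24.7% at L10 and 21.6% at Id2. Of these 31 calls in all, 14 held whichever library was left out, and the exceptions are named with each gene. Without P14.5 basal replicate 3 the P14.5 calls of *Dlk1*, *Mest*, *Plagl1*, *Ndn* and *Sgce* were all lost. Without L10 basal replicate 6 the L10 calls of *Grb10*, *Cdkn1c* and *Ndn* were lost. Each of these fits leaves 1 basal library at its stage. By edgeR 5, 6, 5 and 4 genes were called at P14.5, L3, L10 and Id2 (1902, 3977, 3980 and 3413 of all 17078 genes). With Id2 basal replicate 4 alone, whose basal marker sum was in the range of the other stages and whose pericyte and fibroblast sums were 9790 and 13325 CPM, 5 genes were called at Id2 and *Grb10* (adjusted p = 0.0109) and *Plagl1* (adjusted p = 0.484) were not, while *Dlk1* was, and 14.2% of all genes were called.

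**Figure D3:**
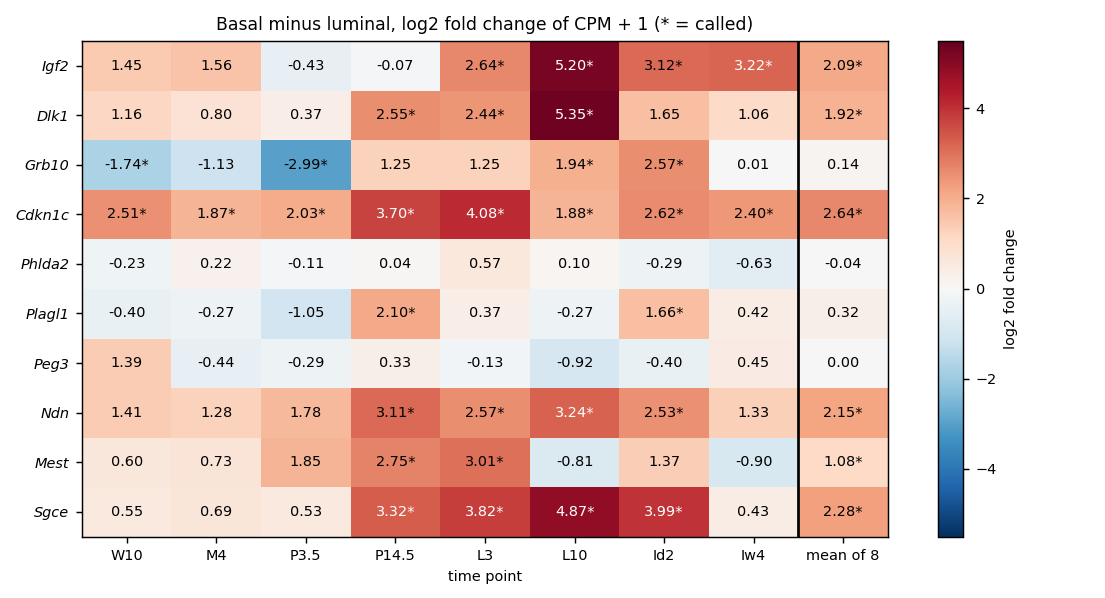
Basal minus luminal log2 fold change of CPM + 1 for each gene (rows) at each time point and for the mean of the 8 (columns), with the value written in each cell and an asterisk where it was called. Cdkn1c is positive and called in every column, Grb10 changes from -2.99 at P3.5 to 2.57 at Id2, and Phlda2 and Peg3 carry no asterisk.

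*Igf2*, the growth factor, was low in the resting gland and reached its highest level in basal cells at L10. In basal cells it measured 6.58, 30.8 and 4.6 CPM at W10, 3.46, 8.27 and 18.4 at M4, and 0.905, 1.86 and 5.27 at P3.5. It measured 85.5 and 79.3 CPM at P14.5, 232, 526 and 257 at L3, 1790 and 1324 at L10, 100, 648 and 56.9 at Id2 and 18.4, 13.0 and 14.5 at Iw4. Every basal library from P14.5 to Id2 lay above every basal library of W10, M4, P3.5 and Iw4, and the 2 libraries of L10 lay above all others. In luminal cells it measured 1.62 to 6.80 CPM at W10, 0.687 to 3.62 at M4, 2.09 to 6.02 at P3.5 and 0.171 to 1.53 at Iw4. The luminal values were 82.5, 47.8 and 163 at P14.5, 56.5, 114 and 18.9 at L3, 12.6, 103 and 50.6 at L10 and 11.5, 30.7 and 13.6 at Id2. The luminal mean was highest at P14.5, where the cell types overlapped, and basal libraries lay above every luminal library at L3, L10, Id2 and Iw4.

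*Igf2* rose in lactation in both cell types. Against the mean of W10 and M4 the log2 fold change in lactation (mean of L3 and L10) was 6.11 ± 0.56 in basal cells (adjusted p = 9.9e-11) and 3.70 ± 0.53 in luminal cells (adjusted p = 1.1e-06). The basal marker sums of the luminal libraries, 868, 1495 and 564 CPM at L3 and 410, 2718 and 1056 at L10, had the same order as their *Igf2*, whereas at P14.5 they were 417, 363 and 250 beside *Igf2* values of 82.5, 47.8 and 163. Their part in the luminal change was not tested. At P14.5 it was 4.62 ± 0.64 in luminal cells (adjusted p = 4.4e-06) and 3.04 ± 0.74 in basal cells, which did not pass (adjusted p = 0.016) but did without W10 basal replicate 5 (3.42, adjusted p = 0.00643), L10 luminal replicate 4 (adjusted p = 0.00948), Id2 basal replicate 4 (0.00569) or Id2 basal replicate 6 (0.00878). At Id2 the change was 3.95 ± 0.64 in basal cells (adjusted p = 7.6e-06), 2.92 without Id2 basal replicate 4, 4.66 without replicate 6 and 6.00 with replicate 4 alone. The 3 Id2 basal libraries, at 100, 648 and 56.9 CPM, had pericyte sums of 3144, 9790 and 2469. The order differed at L3, with 1734, 3622 and 6803 beside *Igf2* values of 232, 526 and 257, and was the opposite at L10, with 7648 and 13413 beside 1790 and 1324, and the part of those cells was not tested. In luminal cells the Id2 change was 2.33 ± 0.64 (adjusted p = 0.006), and this call was lost without W10 luminal replicate 3 or 6, Id2 luminal replicate 2, 4 or 6, or M4 luminal replicate 1 (1.92 to 2.59, adjusted p 0.0115 to 0.0621). Basal marker sums of the luminal Id2 libraries, 168, 340 and 235 CPM, had the order of their *Igf2* (11.5, 30.7 and 13.6 CPM), and their part was not tested. The difference between the cell types in the change to lactation was 2.41 ± 0.77 and did not pass (adjusted p = 0.022), nor in edgeR (1.65, adjusted p = 0.19), but did with the sort as a replicate block (2.34, adjusted p = 0.00961), without W10 basal replicate 5 (2.79, adjusted p = 0.00757) and without L10 luminal replicate 5 (2.74, adjusted p = 0.00919). The calls between the cell types were lost at L3 without luminal replicate 4 or 6 or basal replicate 5 (1.96 to 2.72, adjusted p 0.0111 to 0.0544), at a pseudocount of 0.1 (adjusted p = 0.0116) and in edgeR (2.41, adjusted p = 0.02), at Id2 without basal replicate 4 (2.09, adjusted p = 0.0306) and at Iw4 without luminal replicate 5 (2.93, adjusted p = 0.0122). In the GENCODE M21 annotation of GRCm38, 62.8% of the exon bases of *Igf2* are also exon bases of the overlapping protein-coding gene *Gm49394* on the same strand and 1.71% of the antisense transcript *Igf2os*. Neither is listed in the table, so the *Igf2* row is uncertain as to which of these transcripts its reads came from.

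*Dlk1*, the Notch-related ligand, was found mainly in basal libraries and, like *Igf2*, was highest at L10. Luminal libraries were at 0 in 12 of 24 and under 3 reads in 17 of 24, with a highest value of 1.40 CPM. Basal libraries measured 2.07, 1.03 and 1.62 CPM at W10, 0.407, 1.19 and 0.915 at M4, 0.170, 0.522 and 1.30 at P3.5 and 12.0 and 3.29 at P14.5. They measured 0.321, 19.7 and 14.8 at L3, 39.0 and 49.2 at L10, 1.41, 9.69 and 0.646 at Id2 and 1.60, 2.02 and 0.163 at Iw4. The 2 libraries of L10 were the highest, and at L3 and Id2 the replicates spread widely, with replicate 4 of L3 near the resting level. Replicate 4 of L3 also had the lowest pericyte marker sum of L3, 1734 CPM against 3622 and 6803, and the L10 libraries had 7648 and 13413. In basal cells *Dlk1* rose in lactation by 3.11 ± 0.45 on the log2 scale (adjusted p = 1.2e-06), and by 3.73 without L3 basal replicate 4, whereas its changes at P14.5 (1.80 ± 0.60, adjusted p = 0.1) and Id2 (0.70 ± 0.52, adjusted p = 0.32) did not pass. The lactation change was 2.92 ± 0.62 larger in basal than in luminal cells (adjusted p = 0.00072), and 3.55 larger without that library. This difference was not called at a pseudocount of 0.1 (3.06, adjusted p = 0.061) or by edgeR on the reads (2.95, adjusted p = 0.392). Of the calls between the cell types, that of P14.5 was lost without luminal replicate 2, 3 or 5 or basal replicate 3 (1.75 to 2.65, adjusted p 0.0104 to 0.217) and that of L3 without luminal replicate 4 or basal replicate 5 or 6 (1.72 to 2.21, adjusted p 0.0105 to 0.0305). At Id2 it was gained without L3 basal replicate 4 (1.65, adjusted p = 0.00338) or Id2 basal replicate 6 (2.19, adjusted p = 0.00928).

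*Grb10*, the receptor adaptor, lay on different sides of the cell types at different stages. Up to P3.5 its luminal libraries lay above its basal libraries, and from P14.5 to Id2 they lay below. Luminal libraries measured 13.0, 33.2 and 31.6 CPM at W10, 14.7, 13.5 and 19.2 at M4 and 37.0, 42.7 and 38.5 at P3.5, each above every basal library of the same stage. The basal values were 6.65, 9.23 and 4.34 at W10, 3.36, 8.82 and 9.15 at M4 and 3.17, 3.43 and 6.13 at P3.5. Luminal levels lay between 19.6 and 41.9 CPM from P14.5 to Id2 and between 8.56 and 18.6 at Iw4. Basal levels were 72.3 and 39.7 at P14.5, 26.1, 53.3 and 107 at L3, 95.4 and 121 at L10 and 213, 129 and 287 at Id2, each above every luminal library of its stage, and returned to 6.60, 14.7 and 16.7 at Iw4, where the cell types overlapped.

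*Grb10* rose in basal cells at 3 stages. Its log2 fold change against W10 and M4 was 2.86 ± 0.41 at P14.5 (adjusted p = 7.6e-05), 3.35 ± 0.31 in lactation (adjusted p = 1e-10) and 4.73 ± 0.35 at Id2 (adjusted p = 6.5e-13), and no change of *Grb10* was called in luminal cells. The difference between the cell types in the change was 3.03 ± 0.42 for lactation (adjusted p = 2.2e-06) and 4.01 ± 0.50 for Id2 (adjusted p = 3e-07), and both were called under each alternative run. Within an amplification batch, Id2 against W10 gave 4.74 ± 0.41 in basal cells (adjusted p = 3.7e-11) and P14.5 against P3.5 gave 3.42 ± 0.46 (adjusted p = 1.1e-05). With Id2 basal replicate 4 alone the change to Id2 was 4.11 ± 0.53 (adjusted p = 3.93e-07). Of the 3 Id2 basal libraries, the highest value, 287 CPM, came from replicate 6, which had the fibroblast sum of 81704 CPM. Pericyte sums had the same order as basal *Grb10* at P14.5 (1266 and 1127 CPM), L3 (1734, 3622 and 6803) and L10 (7648 and 13413) but not at Id2 (3144, 9790 and 2469). Fibroblast sums did so at P14.5 (11660 and 6199 CPM), L3 (1419, 1934 and 6200) and L10 (1819 and 2392) but not at Id2 (3958, 13325 and 81704). The part of those cells was not tested. Between the cell types, *Grb10* was lower in basal cells at P3.5 (-2.99 ± 0.41, adjusted p = 6e-07) and at W10 (-1.74 ± 0.41, adjusted p = 0.0014) and higher at L10 (1.94 ± 0.46, adjusted p = 0.00091) and Id2 (2.57 ± 0.41, adjusted p = 5.4e-06). The W10 call was lost without luminal replicate 5 or 6 or basal replicate 6 (-1.549 to -1.499, adjusted p 0.013 to 0.0195) and the L10 call without basal replicate 6 (1.76, adjusted p = 0.0242). At L3 the difference was 1.25 ± 0.41 (adjusted p = 0.014) and not called, but was with the replicate block (adjusted p = 0.00707), in edgeR (1.498, adjusted p = 0.00619) and without L3 basal replicate 4 (1.75, adjusted p = 0.00123). The differences at M4 (-1.13 ± 0.41, adjusted p = 0.045) and P14.5 (1.25 ± 0.46, adjusted p = 0.044) were not called. The P14.5 change was lost without P14.5 basal replicate 3 (2.43, adjusted p = 0.0186).

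*Cdkn1c*, the cyclin-dependent kinase inhibitor, was higher in basal cells at every stage. Its basal libraries lay above every luminal library at all 8 time points, and it was called at each. Basal values were 4.31 to 9.02 CPM at W10, 4.12 to 4.98 at M4, 4.91 to 8.09 at P3.5, 40.7 and 44.4 at P14.5, 15.9 to 23.8 at L3, 6.55 and 12.1 at L10, 7.49 to 9.05 at Id2 and 4.28 to 11.4 at Iw4. Luminal values had a median of 0.494 CPM, with 9 of 24 libraries under 3 reads and a highest value of 5.61 in L10 replicate 6. P14.5 therefore stood out in basal cells, with both libraries above those of every other stage. The fibroblast marker sums of these 2 libraries were 11660 and 6199 CPM, and their part was not tested. That sum was 660 ± 159 at W10, 616 ± 96.2 at M4, 635 ± 37.5 at P3.5 and 3184 ± 2624 at L3 (SD, n = 3). It was 2105 ± 405 at L10 (n = 2) and 3958, 13325 and 81704 at Id2. The change from W10 and M4 was 2.75 ± 0.43 at P14.5 (adjusted p = 0.00023) and 1.11 ± 0.32 in lactation (adjusted p = 0.0068). The first was lost without P14.5 basal replicate 3 (2.82, adjusted p = 0.0103) or 5 (2.69, adjusted p = 0.0111), and at a pseudocount of 0.1 (2.95, adjusted p = 0.051). The second was lost without W10 basal replicate 5, L3 basal replicate 6, L10 basal replicate 6 or M4 basal replicate 1, 2 or 6 (0.91 to 1.14, adjusted p 0.0102 to 0.0623), at a pseudocount of 0.1 (adjusted p = 0.119) and in edgeR (1.25, adjusted p = 0.0439). Against P3.5, within an amplification batch, the P14.5 level was higher by 2.53 ± 0.48 (adjusted p = 0.00075). The calls between the cell types at M4 and L10 were lost without M4 luminal replicate 6 (1.67, adjusted p = 0.0132), L10 luminal replicate 4 (1.26, adjusted p = 0.0356) or L10 basal replicate 6 (1.49, adjusted p = 0.0688), and that of L10 also in edgeR (1.89, adjusted p = 0.0399) and at a pseudocount of 0.1 (adjusted p = 0.0153). In luminal cells the P14.5 change was 1.24 ± 0.37 (adjusted p = 0.024), called without L10 luminal replicate 6 (adjusted p = 0.00935) and by edgeR (2.53, adjusted p = 0.00683). An antisense gene, *Gm44732*, shares 30.7% of the exon bases of *Cdkn1c*.

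*Phlda2*, the neighbour of *Cdkn1c* on chromosome 7 that restrains placental growth, was low throughout. It ranged from 0 to 3.08 CPM in luminal libraries (median 1.02) and from 0 to 6.09 in basal libraries (median 0.817), with 6 of 24 and 5 of 22 libraries under 3 reads. The cell types overlapped at all 8 time points and no contrast of *Phlda2* was called. At Id2 it measured -1.04 ± 0.46 against W10 and M4 in basal cells (adjusted p = 0.078) and, against W10 alone, -1.27 ± 0.53 in basal (adjusted p = 0.069) and -1.20 ± 0.53 in luminal cells (adjusted p = 0.11). In basal cells the 3 Id2 libraries held 5, 0 and 0 reads, against 5 to 31 in those of W10 and M4, and edgeR gave -2.67 (adjusted p = 0.12).

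*Plagl1*, a zinc finger factor known to regulate other imprinted genes, fell in luminal cells at P14.5 and in lactation. Luminal values were 40.5, 63.7 and 94.0 CPM at W10, 66.8, 25.6 and 30.6 at M4 and 24.6, 29.5 and 38.0 at P3.5, and fell to 7.49, 8.85 and 6.67 at P14.5. They were 14.8, 25.2 and 7.01 at L3, 4.79, 13.6 and 15.7 at L10, 12.8, 14.8 and 53.3 at Id2 and 19.3, 50 and 28.3 at Iw4. All 3 luminal libraries of P14.5 lay below every luminal library of W10, M4 and P3.5. The log2 fold change in luminal cells was -2.52 ± 0.43 at P14.5 (adjusted p = 8e-05) and -1.93 ± 0.35 in lactation (adjusted p = 4.1e-05), and both held whichever library was left out. Against P3.5 alone, the stage of the same batch, the P14.5 change was -1.86 ± 0.49 and not called (adjusted p = 0.024; edgeR -2, adjusted p = 0.027). At Id2 it was -1.11 ± 0.43 (adjusted p = 0.048), and -1.74 without Id2 luminal replicate 6 (adjusted p = 0.00494). Basal values were 58.5, 54.1 and 33.0 at W10, 33.9, 21.9 and 39.6 at M4, 12.6, 22.3 and 9.89 at P3.5, 44.8 and 28.6 at P14.5, 26.2, 17.6 and 13.0 at L3, 7.77 and 8.83 at L10, 62.3, 37.0 and 155 at Id2 and 40.1, 44.1 and 37.9 at Iw4. The basal mean was lowest at L10. The 155 at Id2 was that of replicate 6, with a fibroblast sum of 81704 CPM and a basal marker sum of 1272, and the 37.0 of replicate 4 lay within the range of W10. The fall in lactation was called (-1.55 ± 0.37, adjusted p = 0.0011). At P3.5 the basal change was -1.37 ± 0.43 (adjusted p = 0.03), and called without the Id2 libraries (adjusted p = 0.00964). The cell types differed at P14.5 (2.10 ± 0.55, adjusted p = 0.0046) and Id2 (1.66 ± 0.49, adjusted p = 0.0076). The P14.5 call was lost without luminal replicate 2 or 5 or basal replicate 3 or 5 (1.78 to 2.41, adjusted p 0.0115 to 0.116), and that of Id2 without luminal replicate 2 or 4 or basal replicate 2 or 6 (1.10 to 1.76, adjusted p 0.0122 to 0.106) and in edgeR (1.65, adjusted p = 0.0139), and it was 2.29 without luminal replicate 6. The difference between the cell types in the change to Id2 was 2.00 ± 0.60 (adjusted p = 0.017), and was called with the replicate block (adjusted p = 0.00549) and without Id2 basal replicate 4 (2.46, adjusted p = 0.00465) or Id2 luminal replicate 6 (2.62, adjusted p = 0.00199), but with Id2 basal replicate 4 alone it was 1.07 ± 0.72 (adjusted p = 0.406).

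*Peg3*, the other zinc finger factor, was abundant in both cell types at every stage. It ranged from 34.4 to 209 CPM in luminal libraries (median 102) and from 39.7 to 313 in basal libraries (median 82.5). The cell types overlapped at 6 of 8 time points, with basal libraries higher at W10 (130, 170 and 202 against 66.2, 56.1 and 64.3 CPM) and lower at L10 (54.2 and 75.2 against 78.1, 148 and 154). No contrast of *Peg3* was called. At W10 the difference between the cell types was 1.39 ± 0.47 (SE), not called (adjusted p = 0.025) but called without Id2 basal replicate 6 (adjusted p = 0.00457), without the Id2 libraries (adjusted p = 0.00529) and with Id2 basal replicate 4 alone (adjusted p = 0.00402). The 3 basal Id2 libraries, 39.7, 66.7 and 313 CPM, held both the lowest and the highest basal values.

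*Ndn*, encoding the growth suppressor necdin, was at 0 reads in 15 of 24 luminal libraries and under 3 reads in 20. All 3 luminal libraries were at 0 at M4, P14.5 and Iw4, so that fitted differences there depend on the added 1 CPM and are no measure of a fold. Basal libraries measured 1.03, 1.33 and 3.41 CPM at W10, 1.22, 2.67 and 0.762 at M4, 4.19, 1.42 and 6.35 at P3.5 and 7.64 and 7.57 at P14.5. They measured 1.92, 5.20 and 17.4 at L3, 7.42 and 16.3 at L10, 2.97, 14.2 and 46.7 at Id2 and 0.713, 1.08 and 3.43 at Iw4. Basal libraries lay above every luminal library at 7 of 8 time points, with overlap at Id2, where luminal values reached 3.66. The highest value, 46.7, was that of Id2 replicate 6 with its high fibroblast markers, and at L3 the highest of 3 was also replicate 6, which had the highest fibroblast sum of that stage (6200 against 1419 and 1934 CPM). *Ndn* rose in basal cells by 1.82 ± 0.44 in lactation (adjusted p = 0.0014) and 2.46 ± 0.51 at Id2 (adjusted p = 0.00023). The first was lost without L10 basal replicate 6 (1.56, adjusted p = 0.0195) and the second without Id2 basal replicate 6 (1.59, adjusted p = 0.0176), while without Id2 basal replicate 2 it was 3.38 and with Id2 basal replicate 4 alone it was 2.56 ± 0.65 (adjusted p = 0.00413). The lactation change was not called at a pseudocount of 0.1 (2.30, adjusted p = 0.0134) or in edgeR (2.49, adjusted p = 0.0137). Of the calls between the cell types, those of P14.5, L3 and L10 were lost without basal replicate 3 (3.10, adjusted p = 0.0149), 6 (1.87, adjusted p = 0.0159) and 6 (2.72, adjusted p = 0.0145), and that of Id2 without luminal replicate 2 (2.01, adjusted p = 0.017) or basal replicate 6 (1.66, adjusted p = 0.0279) and in edgeR (3.52, adjusted p = 0.0175). At a pseudocount of 0.1 W10, M4, P3.5 and Iw4 were called as well (adjusted p 0.00361 to 0.00789), and P3.5 was also called without Id2 basal replicate 2 (1.77, adjusted p = 0.00968). In luminal cells the Id2 change of 1.27 ± 0.51 (adjusted p = 0.061) was called by edgeR (6.24, adjusted p = 0.00182) and at a pseudocount of 0.1 (adjusted p = 0.00219). The 3 luminal Id2 libraries, at 0.198, 1.68 and 3.66 CPM, had fibroblast sums of 273, 571 and 5874 CPM, whose part was not tested.

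*Mest* was low in most libraries and uneven between replicates. Basal values were 3.32 to 5.64 CPM at W10, 4.27 to 8.23 at M4, 5.89 to 10.7 at P3.5, 19.6 and 30.0 at P14.5, 27.4, 15.1 and 8.54 at L3, 2.97 and 0.380 at L10, 26.5, 1.74 and 8.56 at Id2 and 1.96 to 5.72 at Iw4. Luminal values had a median of 1.88 CPM, with the highest, 16.9, in L10 replicate 6 and 15.5 in Iw4 replicate 5. Basal libraries lay above every luminal library at P3.5, P14.5, L3 and M4. At P14.5 the basal libraries with 19.6 and 30.0 CPM had fibroblast sums of 11660 and 6199 CPM, whose part was not tested. The difference between the cell types was called at P14.5 (2.75 ± 0.74, adjusted p = 0.0059) and at L3 (3.01 ± 0.66, adjusted p = 0.00035). That of P14.5 was lost without any of its 5 libraries, luminal replicate 2, 3 or 5 or basal replicate 3 or 5 (2.45 to 3.04, adjusted p 0.0108 to 0.0625), at a pseudocount of 0.1 (adjusted p = 0.0176) and in edgeR (3.10, adjusted p = 0.0132). No change of *Mest* between stages was called, and 23.1% of its exon bases are shared with *Copg2* on the opposite strand, so that without strand information their reads cannot be told apart there.

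*Sgce*, epsilon-sarcoglycan, rose in basal cells from near 0. Luminal libraries were under 3 reads in 18 of 24, with a highest value of 4.07 CPM at Id2. Basal libraries measured 0.370, 0.718 and 0.596 CPM at W10, 0.102, 2.57 and 0.305 at M4, 0.452, 0 and 1.08 at P3.5 and 18.0 and 6.91 at P14.5. They rose to 7.46, 20.8 and 29.8 at L3, 44.2 and 55.0 at L10 and 17.6, 40.1 and 84.7 at Id2, and were back at 0.357, 1.48 and 1.31 at Iw4. Pericyte marker sums had the same order at L3 (1734, 3622 and 6803 CPM) and L10 (7648 and 13413) but not at Id2 (3144, 9790 and 2469). Fibroblast sums had the same order as *Sgce* at P14.5 (11660 and 6199 CPM), L3 (1419, 1934 and 6200), L10 (1819 and 2392) and Id2 (3958, 13325 and 81704). The 84.7 at Id2 was that of replicate 6, with the lowest pericyte sum of the 3 and a fibroblast sum of 81704, and the part of those cells was not tested. Every basal library from P14.5 to Id2 lay above every other basal library and above every luminal library. The log2 fold change in basal cells was 2.903 ± 0.51 at P14.5 (adjusted p = 0.00066), 4.19 ± 0.38 in lactation (adjusted p = 9.9e-11) and 4.62 ± 0.44 at Id2 (adjusted p = 1.9e-10), and with Id2 basal replicate 4 alone the last was 4.65 ± 0.63 (adjusted p = 7.13e-07). The P14.5 change was lost without P14.5 basal replicate 3 (2.27, adjusted p = 0.0838), was 3.53 without replicate 5 and was also lost at a pseudocount of 0.1 (4.18, adjusted p = 0.0204). At P14.5 the call between the cell types was lost without basal replicate 3 (2.69, adjusted p = 0.0112). The cell types differed in the change to lactation by 3.73 ± 0.53 (adjusted p = 2.7e-06) and to Id2 by 3.38 ± 0.63 (adjusted p = 0.00015). Neither difference was called by edgeR on the reads (2.78, adjusted p = 0.33, and 1.35, adjusted p = 0.713), and that of Id2 was not at a pseudocount of 0.1 (2.95, adjusted p = 0.0913). Luminal libraries of W10 and M4 held at most 0.124 CPM. In luminal cells the Id2 change was 1.25 ± 0.44 (adjusted p = 0.033), called without Id2 luminal replicate 2 (1.79, adjusted p = 0.00726) and by edgeR (4.58, adjusted p = 0.0022) and at a pseudocount of 0.1 (adjusted p = 0.00705). Those luminal Id2 libraries measured 0.198, 1.68 and 4.07 CPM, in the order of their fibroblast sums (273, 571 and 5874 CPM), whose part was not tested.

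Read by stage, genes of the 10 were called at P14.5, in lactation and at Id2 in both cell types. These contrasts share the W10 and M4 libraries as controls. In basal cells 3 of 10 genes were called at P14.5, all higher, where 1.08% of all genes were called; 7 in lactation, 6 higher and 1 lower (16.5% of all genes); and 4 at Id2, all higher (19.5%). The 3 calls at P14.5, *Grb10*, *Cdkn1c* and *Sgce*, were all lost without P14.5 basal replicate 3, which leaves 1 basal library there. Those of *Cdkn1c* and *Sgce* were also lost at a pseudocount of 0.1. The median log2 fold change of the 10 genes was 1.97 at P14.5, 1.46 in lactation and 0.79 at Id2, against -0.03, -0.05 and -0.04 for all genes. In luminal cells 2 were called at P14.5 (4.59% of all genes), 2 in lactation (13.2%) and 1 at Id2 (12.9%), each of them *Igf2* or *Plagl1*. By edgeR on the reads the counts at P14.5, in lactation and at Id2 were 3, 5 and 4 in basal cells (140, 3070 and 3355 of all 17078 genes) and 3, 2 and 3 in luminal cells (683, 2626 and 2203 of all genes), where *Cdkn1c* at P14.5 (2.53, adjusted p = 0.0068) and *Ndn* and *Sgce* at Id2 (6.24, adjusted p = 0.0018, and 4.58, adjusted p = 0.0022) were added. A difference between the cell types in these counts was not tested. At P3.5 limma called none in basal cells (4.09% of all genes; 3 of 10 at an unadjusted p under 0.05, as were 4170 of all 17078 genes) and none in luminal cells (0.369%; 1 of 10 and 2510 of all genes at that p), and edgeR called none in either. At Iw4 against M4, the test of a lasting difference after a pregnancy, none was called in basal (0.00586% of all genes) or luminal cells (0%), none had an unadjusted p under 0.05, and edgeR called none.

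**Figure D4:**
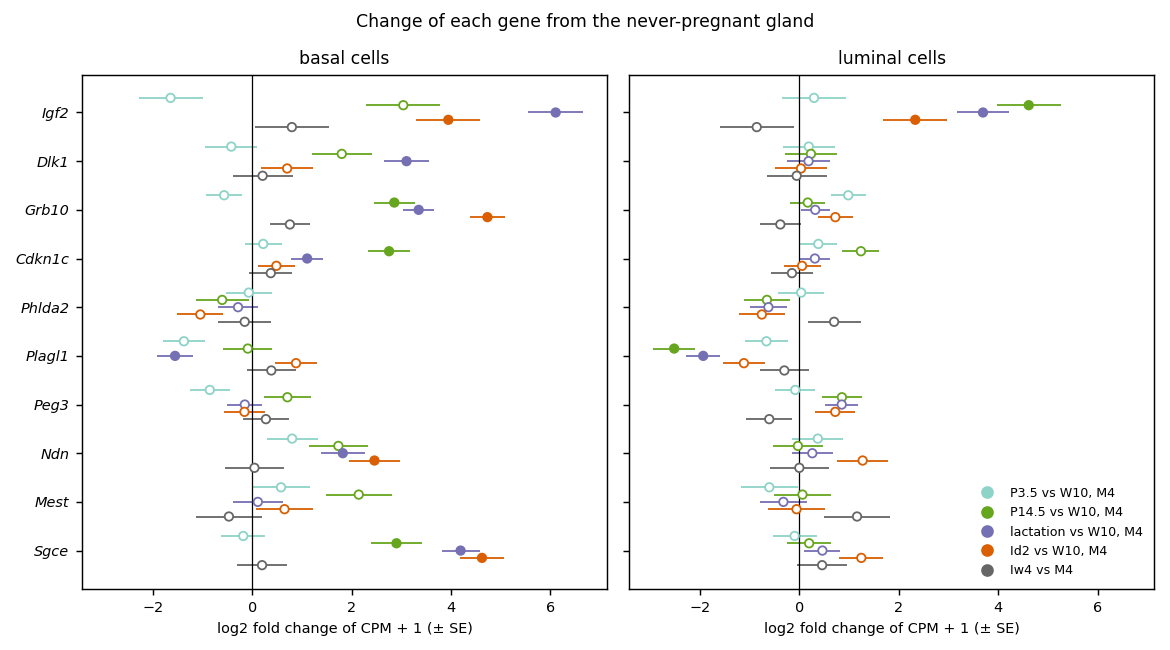
Log2 fold change of CPM + 1 with its SE for each gene at each stage, basal cells on the left and luminal cells on the right, against W10 and M4 (Iw4 against M4); filled circles were called. Filled circles in basal cells lie at P14.5, lactation and Id2 for Grb10 and Sgce, and in luminal cells belong to Igf2 and Plagl1.

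Id2 and P14.5 can each be compared with a stage of the same amplification batch. The stages compared were sequenced in different lanes, W10 in lane 2 and Id2 in lane 3, P3.5 in lane 5 and P14.5 in lane 6. Stage and lane cannot be told apart in these contrasts. At Id2 against W10, *Igf2*, *Grb10*, *Ndn* and *Sgce* were called in basal cells (17.4% of all genes), with log2 fold changes of 3.82 ± 0.74, 4.74 ± 0.41, 2.37 ± 0.59 and 4.70 ± 0.51, and these are also the 4 called against W10 and M4 together. Of these, *Ndn* was not called by edgeR (3.46, adjusted p = 0.0188). In luminal cells limma called none (10.4% of all genes; 6 of 10 at an unadjusted p under 0.05, as were 5555 of all 17078 genes), nor did edgeR, and *Igf2* measured 2.15 ± 0.74 (adjusted p = 0.035). At P14.5 against P3.5, *Igf2*, *Grb10*, *Cdkn1c* and *Sgce* were called in basal cells (3.64% of all genes), with log2 fold changes of 4.68 ± 0.83, 3.42 ± 0.46, 2.53 ± 0.48 and 3.08 ± 0.57, and edgeR did not call *Cdkn1c* (2.68, adjusted p = 0.019). *Igf2* was called in luminal cells (4.32 ± 0.74, adjusted p = 0.00034; 1.52% of all genes) and *Plagl1* was not. For lactation no such comparison exists. The difference between the cell types in the change was called for 3 genes in lactation, *Grb10*, *Dlk1* and *Sgce* (10.3% of all genes), and for 2 at Id2, *Grb10* and *Sgce* (9.71%). The cell types of a sort shared a batch, but the changes they are compared in span batches for lactation and, through M4, for Id2, and whether a batch acted alike on both cell types was not tested.

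Single imprinted genes outside the set were followed too. Among them *H19*, *Meg3*, *Rtl1* and *Peg10* are neighbours of *Igf2*, *Dlk1* or *Sgce* in their clusters. These genes were picked from those called in these data, so they do not show how whole clusters changed. *H19*, the maternally expressed RNA beside *Igf2*, rose in basal cells in lactation by 6.05 ± 0.82 (adjusted p = 3.4e-07), from 1.73 ± 0.885 CPM at W10 to 91.3 ± 24.4 at L3 (SD, n = 3) and 338 ± 99.7 at L10 (n = 2), and by 1.25 ± 0.78 in luminal cells, which did not pass (adjusted p = 0.23). *Meg3* and *Rtl1*, in the cluster of *Dlk1*, rose in lactating basal cells by 3.38 ± 0.53 and 2.03 ± 0.38 (adjusted p = 4e-06 and 6.3e-05), and *Peg10*, beside *Sgce*, by 3.12 ± 0.45 (adjusted p = 8.8e-07). *Slc38a4*, an amino acid transporter active on the paternal copy, measured 4.79 ± 5.05 CPM at W10 and 8.44 ± 6.94 at M4 in basal cells, 1.09 ± 1.79 at L3 (SD, n = 3) and 0 in both L10 libraries, a fall that was called (adjusted p = 0.00055). *Slc22a3*, an organic cation transporter active on the maternal copy, rose by 3.62 ± 0.66 (adjusted p = 4.1e-05).

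Other imprinted genes were counted as lists. Of 13 measured genes active on the paternal copy, 3 rose and 1 fell in lactating basal cells (16.5% of all genes were called), with a median log2 fold change of 0.10, and 1 fell in luminal cells (13.2% of all genes), the chromatin gene *Sfmbt2* (-1.49 ± 0.35, adjusted p = 0.00096). Of 18 active on the maternal copy, 7 rose and 1 fell in basal cells (median 0.77), and in luminal cells 2 rose and 2 fell, among them the tetraspanin *Cd81* (1.21 ± 0.19, adjusted p = 4.2e-06) and the matrix proteoglycan *Dcn* (-2.77 ± 0.63, adjusted p = 0.00075). Between the cell types, where 21% of all genes were called, 4 of the 13 were higher in basal cells, led by *Slc38a4* (2.04 ± 0.24, adjusted p = 1.8e-09), *Peg10* (1.69 ± 0.22, adjusted p = 1.6e-08) and *Rtl1* (1.60 ± 0.18, adjusted p = 1.4e-09). Of the 18, 4 were higher and 3 lower, led by *Meg3* (3.97 ± 0.26, adjusted p = 3.2e-16), *Dcn* (2.96 ± 0.32, adjusted p = 3.7e-10) and the phospholipid transporter *Atp10a* (2.63 ± 0.22, adjusted p = 6.7e-13).

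The insulin and IGF pathway around *Igf2* and *Grb10* was measured with 14 genes. Between the cell types 3 were higher and 2 lower in basal cells, where 21% of all genes were called. *Igf1r*, a receptor through which IGF2 signals, was higher in basal cells (1.88 ± 0.14, adjusted p = 1.9e-14), at 146 ± 36.9 against 36.5 ± 15.4 CPM at W10 (SD, n = 3). The change of *Igf1r* in lactation did not pass in basal cells (-0.11 ± 0.29, adjusted p = 0.8). The paper proposes that IGF2 acts through the insulin receptor in lactogenesis. *Grb7*, a relative of *Grb10*, was lower in basal cells (-3.03 ± 0.17, adjusted p = 3e-18) and fell further there in lactation by 2.37 on the log2 scale (SE 0.34, adjusted p = 1.2e-06). *Igf2bp2*, an RNA-binding protein of *Igf2* transcripts, was lower in basal cells as well (-1.26 ± 0.19, adjusted p = 3.5e-07). *Igf2r*, the imprinted receptor that removes IGF2 and is also among the 18 genes above, rose in lactation in basal (1.00 ± 0.15, adjusted p = 1.1e-06) and luminal cells (1.10 ± 0.14, adjusted p = 1.1e-07). In luminal cells *Igf1* rose (2.54 ± 0.64, adjusted p = 0.0023) and the adaptor *Grb14* fell by 2.02 on the log2 scale (SE 0.32, adjusted p = 6.1e-06).

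Other relatives of the 10 genes were counted in the same way between the cell types, against 21% of all genes called, 13.6% higher and 7.35% lower. Of 12 genes of the Notch pathway 7 were higher in basal cells and none lower, led by the ligands *Jag2* (4.92 ± 0.22), *Dll1* (4.91 ± 0.18) and *Dlk2* (3.33 ± 0.13), the close relative of *Dlk1*. *Dlk2* measured 27.7 ± 2.94 CPM in basal cells at L3 and 0.258 ± 0.448 at Id2 (SD, n = 3), and its change to lactation was 0.30 ± 0.26 (adjusted p = 0.41). The basal marker sums of these libraries were 81950, 81974 and 42722 CPM at L3 and 1795, 19224 and 1272 at Id2, and their part was not tested. In the dystrophin complex 8 of 12 were higher and none lower, led by *Dtna* (2.96 ± 0.22), *Sspn* (2.63 ± 0.17) and *Sgcb* (2.28 ± 0.13), and *Dtna* also rose in lactating basal cells (2.89 ± 0.46, adjusted p = 5.4e-06). Of 13 cell cycle genes around *Cdkn1c* only cyclin *Ccnd2* was called, higher in basal cells (4.65 ± 0.20, adjusted p = 2.2e-21). Of 7 relatives of *Ndn*, *Plagl1* and *Phlda2*, 3 were higher, *Phlda3* (3.44 ± 0.15), *Maged2* (1.61 ± 0.14) and *Mageh1* (1.41 ± 0.18).

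The genes whose 16 condition means were most like each of the 10 are given as a description, by Pearson correlation of log2(CPM + 1) among genes with a mean of at least 5 CPM. For *Sgce* they were *Enpep* (0.992), *Adcyap1r1* (0.990) and *Pde1a* (0.987), for *Ndn* *Gjc1* (0.974), *Cd248* (0.965) and *Gstm2* (0.963), and for *Dlk1* *Dgkg* (0.957), *Rab6b* (0.957) and *Cdh6* (0.947). For *Igf2* they were *Arhgap17* (0.949), *Tinagl1* (0.945) and *Cbfa2t3* (0.943), and for *Grb10* *Hba-a1* (0.937), *Rgs3* (0.923) and *Pea15a* (0.908), of which *Hba-a1* encodes the haemoglobin alpha chain of red blood cells. The closest to *Cdkn1c* were *Trim44* (0.927), *Vldlr* (0.919) and *Sema3d* (0.917), and to *Plagl1* *Gfpt2* (0.880), *Washc4* (0.877) and *Rbm18* (0.873). For *Phlda2* they were *Ptn* (0.878), *Ephb3* (0.873) and *Dgki* (0.862). *Mest* (*Tspan5* 0.754, *Cpxm1* 0.744, *Itm2a* 0.730) and *Peg3* (*Amot* 0.751, *Thrb* 0.720, *Atrnl1* 0.716) had lower values. Among the 10 themselves the highest correlation was 0.907, between *Sgce* and *Ndn*, followed by 0.865 between *Sgce* and *Dlk1*, and the lowest was -0.562, between *Igf2* and *Phlda2*. The means compared come from the same libraries and share their depth, and by Spearman correlation 9 of these 30 genes were again among the 3 most alike.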

How the data were processed

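RNA-seq was carried out on luminal and basal mammary cells sorted from FVB/N mice, and 46 of 47 described libraries have a column in the table. The library without a column is P14.5 basal replicate 2, of the stage and cell type from which the study removed its outlier. According to the labels and the study's methods, the authors amplified the RNA, aligned reads with GSNAP to NCBI Build 37.1 (mm9), used htseq-count to assign them to Ensembl genes, and removed genes with few reads and very highly expressed genes of low variability. The counting is not stated to use strand. The deposited values are a normalised signal, read counts scaled by the edgeR effective library size, called CPM here. All values were whole multiples of 1 read (tolerance 0.1 reads), which gave 4398806 to 20023054 reads on genes per library (median 8518616), and 3 reads correspond to 0.170 to 1.05 CPM. This floor covers counting error only. Symbols and exon lengths came from GENCODE M21, with 16897 identifiers named and 181 not, and promoter sequences from RefSeq (GRCm38.p6). No column was left out.

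Log2(CPM + 1) values were fitted with limma (version 3.58.1, R version 4.3.3) with a mean for each of 16 conditions, and p-values were adjusted by Benjamini-Hochberg over all 17078 genes. Calls required a 2-fold change or more with a false discovery rate under 0.01. All adjusted p-values are from this fit unless another is named. The labels give luminal and basal libraries of a sort the same number. In 21 of 22 pairs the deviations from the condition means correlated above 0 (median 0.25, lowest -0.005), and a fit with the sort as a replicate block was an alternative (consensus correlation 0.179). Other alternatives were edgeR (version 4.0.16) on the recovered reads, a pseudocount of 0.1, median ratio scaling, a mean of at least 5 CPM, a false discovery rate of 0.05, leaving out the Id2 libraries and leaving out each library in turn. Contrasts within an amplification batch and the use of Id2 basal replicate 4 alone were chosen after seeing the data. The genes and lists were chosen with earlier results of these data known. Of each list of related genes, up to 3 genes called between the cell types with the largest change were named, of the imprinted and insulin lists also up to 2 per cell type called in lactation, and for each of the 10 genes the 3 with the highest Pearson correlation. *Meg3*, *Rtl1*, *Igf1r*, *Dlk2* and *Dtna* were named again beside other contrasts after their values were seen.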

Additional observations from a re-analysis of the deposited data

Results flagged for a closer look

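The change from the never-pregnant gland to lactation differed between basal and luminal cells for 3 of the 10 genes (10.3% of all genes), by the test of the difference itself: by 3.03 for *Grb10*, 2.92 for *Dlk1* and 3.73 for *Sgce* on the log2 scale of CPM + 1, each larger in basal cells. The change to Id2 differed for *Grb10* by 4.01 and for *Sgce* by 3.38 (9.71% of all genes were called), again larger in basal cells. Both values for *Grb10* were called under each alternative run, whereas edgeR on the reads called neither that of *Dlk1* nor those of *Sgce*. Pericyte, endothelial and fibroblast marker sums in basal libraries rose over the same stages, and their part in these differences was not tested.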

How the results depend on the processing

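No result changed direction under any alternative while called. Of 61 called results among 210 (10 genes in 21 contrasts), 36 were called whichever library was left out, 47 under every other alternative and 32 under both. In luminal cells 5 changes between stages were called, against 8 in edgeR and 8 at a false discovery rate of 0.05. The difference between the cell types in the change to lactation was called for 3 genes, against 1 in edgeR, and in the change to Id2 for 2 genes, against 1 in edgeR and 1 at a pseudocount of 0.1. Of the Id2 changes in luminal cells 1 was called, and 0 against W10 only. The cause of these shifts was not tested. Leaving out 1 library at a time gave 5 to 6 calls between the cell types over the mean of time points, 26 to 33 at single time points, 11 to 15 between stages in basal cells, 4 to 6 in luminal cells, 3 to 4 for the difference in lactation and 2 to 3 for that at Id2. The replicate block added 3 calls, *Grb10* between the cell types at L3 (1.25), *Igf2* for the difference in lactation (2.34) and *Plagl1* for the difference at Id2 (2.00), and changed no other call of these 10 genes. Median ratio scaling changed none. The filter at a mean of 5 CPM left out the low genes by construction. The sum of *Igf2* and its overlapping gene was not run, since the overlapping gene has no row in the table. With Id2 basal replicate 4 alone, that library was assumed to vary like the other groups.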
